A study of Haplochromis burtoni and Eretmodus cyanostictus and Lepidiolamprologus attenuatus with 30 samples.

Results

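Genes with their highest expression in the middle of the intestine were examined in 3 African cichlid fishes, 100 genes of the 38425 counted. They were chosen from the measured values by a score. Counts were scaled to CPM (counts per 1000000 gene counts of a library), averaged over the 2 fish of a group, and put on the scale log2(CPM + 1). The score of a gene in a species was its mean level in sections 2, 3 and 4 minus the higher of its levels in sections 1 and 5. Genes needed a mean of at least 10 CPM over all libraries and a change of less than 4-fold between sections 5 and 1 in at least 1 species, which 11130 genes met. The 100 genes with the highest smallest score over the 3 species are called the middle-gut genes here, and a gene's rank is its place in that order. The score, the comparison of the middle with the ends and that of section 5 with section 1 were used in the choice, so their values below are a description and were not tested.

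The study asked how expression varies along the gut of Haplochromis burtoni (fish 1 and 2), Eretmodus cyanostictus (fish 3 and 4) and Lepidiolamprologus attenuatus (fish 6 and 7). Every intestine was cut into 5 pieces of equal length, numbered from 1 at the anterior to 5 at the posterior end, and bulk RNA sequencing of each piece gave 30 libraries in 15 groups of 2 fish. A section number is therefore a relative position and not an anatomical landmark, and the sources used here give no treatment, strain, age or diet for any group. In bulk tissue, fewer cells of a type and less RNA per cell cannot be told apart.

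Food moves through a vertebrate intestine past segments of different function. In zebrafish, fat is taken up mainly by enterocytes of the anterior gut, and enterocytes rich in lysosomes farther back internalise and degrade whole proteins. The genes carry numeric IDs, and none of the middle-gut genes (0) matched the gene table used here. Roles, sequences and marker lists are therefore not given, and the tissue label was not checked against markers. No more than 4 IDs are named, and other genes are called by their rank.

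Gene counts ranged from 6311892 to 11353391 per library. The 2 fish of a group differed by more than counting noise in every group, with chi-square values of 12.6 to 140 per degree of freedom over genes. The labels number the fish and say nothing of their origin, so p-values below measure the spread between these animals only. The section 4 library of fish 2 had both the lowest depth and the highest share of reads outside genes, 16.5% against at most 10.5% in the other H. burtoni libraries. Between 4.3% and 21.9% of a library's counts lay on its 10 most abundant genes. In L. attenuatus their mean share was 20.5% in section 1, 16.5% in section 2 and 6.09% in section 4, and CPM takes no account of it.

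By CPM, the scale of all values in this paragraph, the middle-gut genes stood above both ends of the gut by small amounts. The smallest of the 3 species' scores ran from 0.052 to 1.61 with a median of 0.129, which is 1.04-fold, 3.05-fold and 1.09-fold. It exceeded 0.25 in 17 genes, 0.5 in 6 and 1 (2-fold) in 3. The genes ranked 98 to 100 had smallest scores of 0.0559, 0.0522 and 0.052, and those ranked 101 to 103 had 0.0516, 0.0495 and 0.0476, so the border fell within a continuum. Of the 11130 eligible genes, 156 (1.4%) had a positive score in all 3 species. Most eligible genes were lower in the middle than at the higher end, with a median score of -0.301 for H. burtoni, -0.158 for E. cyanostictus and -0.161 for L. attenuatus.

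On the CPM scale the lowest scores came mostly from E. cyanostictus. The median score of the middle-gut genes was 0.298 for H. burtoni, 0.18 for E. cyanostictus and 0.302 for L. attenuatus. E. cyanostictus held the smallest of the 3 scores for 52 genes, L. attenuatus for 30 and H. burtoni for 18. With TMM factors (trimmed mean of M values, which correct CPM for a few genes taking a large share of counts) this order turned. L. attenuatus then held the smallest for 66 genes, E. cyanostictus for 33 and H. burtoni for 1, with median scores of 0.0429, 0.166 and 0.428. On the CPM scale, a score over 1 occurred in 9 genes for H. burtoni, 3 for E. cyanostictus and 9 for L. attenuatus, and the highest was 4.16, 1.61 and 3.97 in the same order. The median log2 change from section 1 to 5 was -0.07 for H. burtoni (single genes from -4.44 to 1.69), 0.06 for E. cyanostictus (-1.29 to 3.52) and -0.01 for L. attenuatus (-2.43 to 2.62). With TMM factors these medians were -0.19, -0.19 and -0.53. On the CPM scale, section 5 was above section 1 in all 3 species for 16 genes and below it for 20.

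The members spanned low to moderate abundance, from 10.2 to 700 mean CPM with a median of 64.6, against a median of 34.1 over eligible genes. At least 100 CPM was reached by 34 of them. In 95 genes every library held more than 3 counts, and of 3000 values 26 were at 3 counts or fewer. The median middle-gut gene stood at 49.9, 69.8, 90.2, 67.8 and 43.4 CPM in sections 1 to 5 of H. burtoni. In E. cyanostictus it stood at 46.2, 66.4, 87.2, 57.2 and 50.7 CPM, and in L. attenuatus at 41.1, 51.6, 75, 69.2 and 40.2 CPM. Section 3 held the highest of these medians in each species, but L. attenuatus kept nearly the same level in section 4.

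Summed together, the middle-gut genes took 0.753% to 1.79% of the gene counts of a library. In H. burtoni the share was 0.969% ± 0.095 in section 1, 1.64% ± 0.202 in section 3 and 0.894% ± 0.073 in section 5 (SD, n = 2). In E. cyanostictus it was 0.917% ± 0.232, 1.44% ± 0.152 and 0.966% ± 0.242 in these sections (SD, n = 2). In L. attenuatus it was 0.865% ± 0.037, 1.32% ± 0.009 and 0.788% ± 0.031 (SD, n = 2), and section 4, at 1.35% ± 0.052, was as high as section 3. Within each of the 6 fish, all 3 middle libraries lay above both end libraries in this share, with a smallest gap of 0.0338 percentage points. The rule chose the genes on these CPM levels, so the shares describe the members only. TMM factors were not applied to the shares, and the order of libraries does not hold throughout with them. Fish 1 had shares of 1.036% in section 1 and 1.07% in section 4, with factors of 0.922 and 1.005. Divided by these, section 4 falls below section 1. In fish 6 the shares were 0.839%, 1.044%, 1.324% and 1.388% in sections 1 to 4, with factors of 0.675, 0.844, 1.045 and 1.152. Section 2 then falls slightly below section 1, and section 4 falls below sections 1, 2 and 3. In fish 7 the shares were 1.311% in section 3 and 1.314% in section 4, with factors of 0.922 and 1.011. Section 4 then falls below section 3 there as well. In section 1 of L. attenuatus the TMM factors were 0.675 and 0.777, and with them 22 members peaked in that section. Fish 3 lay above fish 4 in every section, at the ends as well as in the middle.

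**Figure D1:**
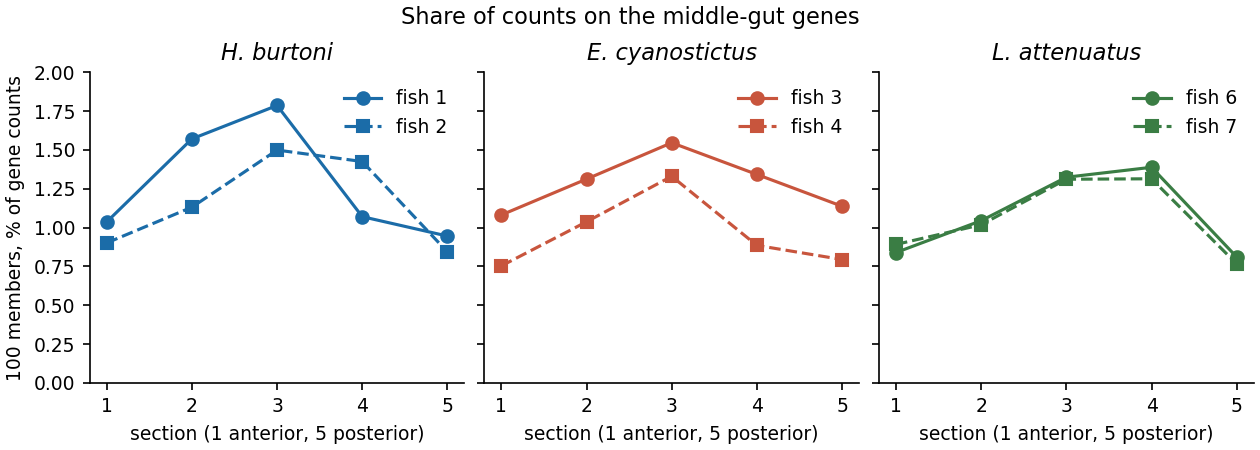
Share of each library's gene counts taken by the 100 middle-gut genes (%, y axis from 0) in sections 1 to 5 (x axis), with a panel per species and a line per fish. In these shares, without TMM factors, every middle section lies above both ends of the same fish. Divided by the TMM factors, this order does not hold in fish 1 and fish 6. Without the factors, the highest share is in section 3 except in L. attenuatus, where section 4 is about level with it. With them, section 4 falls below section 3 in both L. attenuatus fish.

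A positive score of the 2-fish mean did not always hold in each fish. A positive score occurred for 82 middle-gut genes in fish 1, 87 in fish 2, 61 in fish 3, 71 in fish 4, 86 in fish 6 and 80 in fish 7. The median score was lowest in fish 3 at 0.0404, followed by 0.183 in fish 4, and lay between 0.243 and 0.3 in the other 4 fish. The score was positive in all 6 fish for 18 genes, in 5 for 44, in 4 for 28, in 3 for 7 and in 2 for 3. The 18 genes positive in all 6 fish are among 19 eligible genes (0.171%) with that property, and 11 of the 18 rank among the first 20. Their margins were small, since the lowest of a gene's 6 fish scores had a median of 0.0492 and reached at most 0.432.

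The 2 fish of a species differed in score by a median of 0.26 for H. burtoni, 0.283 for E. cyanostictus and 0.279 for L. attenuatus. Each exceeds the median smallest score over the 3 species, 0.129. Set against the median score of the same species (0.298, 0.18 and 0.302), the difference was larger in E. cyanostictus only. In E. cyanostictus the score was positive in both fish for 42 genes, in 1 for 48 and in neither for 10. The numbers for both fish were 70 in H. burtoni and 66 in L. attenuatus. The score of the 2-fish mean exceeded the scores of both fish in 33 middle-gut genes for H. burtoni, 33 for E. cyanostictus and 12 for L. attenuatus, against 12.4%, 20.1% and 5.24% of eligible genes.

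**Figure D2:**
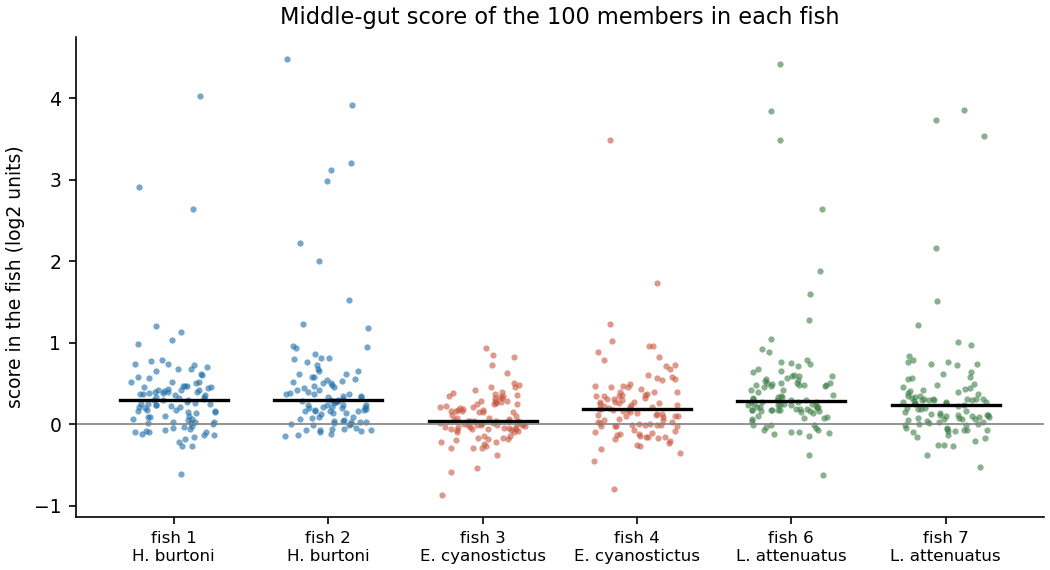
Score of each of the 100 middle-gut genes computed in each fish alone (y axis, log2 units, the mean of sections 2 to 4 minus the higher end), with a point per gene, a black line at the median and a grey line at 0. The median is lowest in fish 3, at 0.0404, and in every fish part of the genes fall below 0.

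Library by library, the 6 middle libraries of a species lay wholly above its 4 end libraries for 11 middle-gut genes in H. burtoni (0.261% of eligible genes), for 0 in E. cyanostictus (0.0359%) and for 13 in L. attenuatus (0.961%). This separation held in at least 1 species for 23 genes and in all 3 species for 0 (0% of eligible genes). These counts likewise describe values that the rule used.

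On the CPM scale the peak sat in section 3 for most middle-gut genes of H. burtoni and E. cyanostictus and in section 3 or 4 for those of L. attenuatus. By the mean of the 2 fish, 20 genes peaked in section 2, 67 in section 3 and 13 in section 4 of H. burtoni. The numbers were 20, 72 and 8 for E. cyanostictus, and 4, 49 and 47 for L. attenuatus. Among eligible genes, the share peaking in section 4 was 6.36% for H. burtoni, 21.3% for E. cyanostictus and 34.7% for L. attenuatus. With TMM factors these shares were 11.7%, 26.1% and 12.9%, so that the order of E. cyanostictus and L. attenuatus turned. The pattern of the members was not kept in L. attenuatus either, where 22 members then peaked in section 1, 16 in section 2, 35 in section 3 and 27 in section 4. On that scale section 3 held 67 of the H. burtoni peaks and 52 of the E. cyanostictus peaks, and section 1 held 0 and 1. By CPM again, the peak was in the same section in all 3 species for 34 genes, 31 of them in section 3. A peak in section 3 of both H. burtoni and E. cyanostictus and in section 4 of L. attenuatus occurred in 22 genes by CPM. These combinations are given without TMM factors and without a share over eligible genes, so they are a description.

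**Figure D3:**
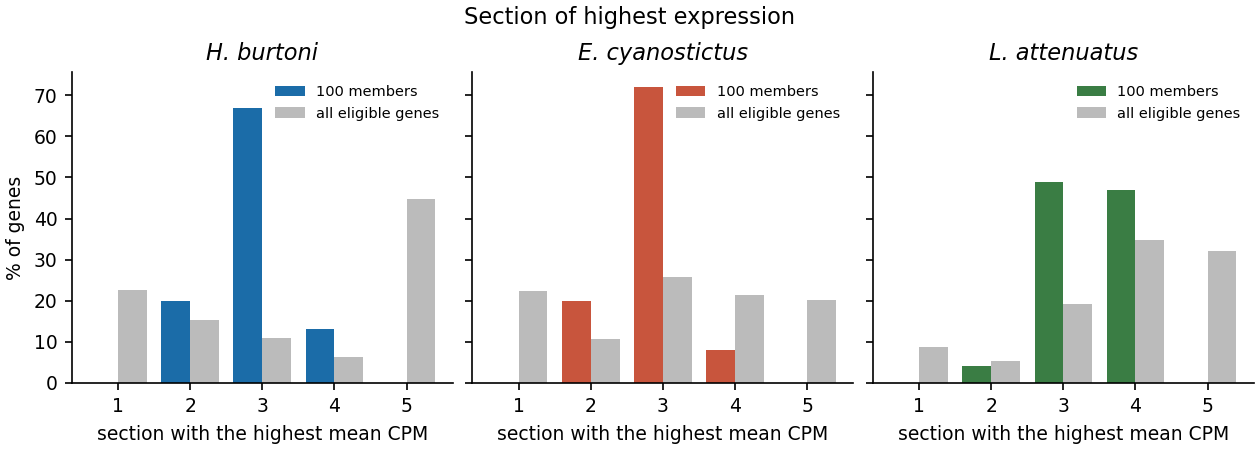
Section with the highest mean CPM (x axis) for the 100 middle-gut genes (coloured bars) and for all 11130 eligible genes (grey bars), as % of genes (y axis from 0), with a panel per species. On this CPM scale members peak mainly in section 3, and in L. attenuatus 47 of them peak in section 4, a number that is 27 with TMM factors.

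Fish of the same species often placed the peak in different sections. In H. burtoni, 31 middle-gut genes peaked in the same section of both fish, 60 peaked farther back in fish 2 and 9 farther back in fish 1. Fish 1 had 36 peaks in section 2 and 5 in section 4, whereas fish 2 had 12 and 33. The section 4 library of fish 2 had the lowest depth and the highest share of reads outside genes. In E. cyanostictus 40 genes peaked in the same section of both fish, 38 farther back in fish 3 and 22 farther back in fish 4. With TMM factors the numbers farther back were 71 in fish 2 and 5 in fish 1, and 34 in fish 3 and 35 in fish 4. By CPM the 2 L. attenuatus fish placed the peak together for 64 genes, 31 in section 3 and 32 in section 4. It lay farther back in fish 6 for 20 genes and in fish 7 for 16. With TMM factors these fish placed the peak together for 46 genes. It then lay farther back in fish 6 for 15 and in fish 7 for 39. By CPM only 8 genes peaked in the same section in all 6 fish, each time in section 3.

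The gene with ID 109195278, ranked 1, had the highest smallest score. In sections 1 to 5 it measured 21.0, 99.3, 95.3, 7.61 and 0.518 CPM in fish 1, and 4.89, 37.6, 60.7, 41.5 and 0.359 CPM in fish 2. In fish 3 it measured 5.65, 13.8, 15.1, 46.1 and 13.4 CPM, and in fish 4 it measured 7.50, 14.9, 60.2, 0.540 and 0.569 CPM. In fish 6 it measured 1.61, 27.5, 92.8, 63.6 and 0.297 CPM, and in fish 7 it measured 2.99, 27.9, 100.1, 33.2 and 0.236 CPM. Both L. attenuatus fish had all middle levels at least 27.5 CPM and both ends at most 2.99 CPM, with no overlap. In E. cyanostictus the groups overlapped, because fish 4 was already as low in section 4 as in section 5. They also overlapped in H. burtoni, where fish 1 had 21.0 CPM in section 1 and 7.61 CPM in section 4. The scores were 1.9 for H. burtoni, 1.61 for E. cyanostictus and 3.97 for L. attenuatus (15.7-fold). The score was positive in every fish, from 0.432 in fish 4 to 4.41 in fish 6.

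The gene ranked 2 followed nearly the same course, with a higher peak in each fish, by little in fish 6 and 7. It reached 287 CPM in section 2 of fish 1, 156 in section 3 of fish 2, and 104 and 110 in section 3 of fish 6 and 7. In section 5 these 4 fish had 0.778, 0.718, 0.446 and 1.30 CPM. In fish 4 it stood at 136 CPM in section 3 and had no count in section 4, while in fish 3 it was highest in section 4 at 73.6 CPM and still 39.1 CPM in section 5. Its score was positive in fish 3 (0.282), negative in fish 4 (-0.792) and 1.21 for their mean. It therefore shared with the gene ranked 1 both the near absence from section 5 in 5 of 6 fish and the different positions of the 2 E. cyanostictus fish.

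The gene ranked 3 was nearly absent from section 1 in every fish, with 0 to 0.516 CPM, and peaked in section 3 or 4. The peak was 67.0 CPM in section 3 of fish 1 and 49.1 in section 4 of fish 2. It was 66.0 CPM in section 4 of fish 3 and 113 in section 3 of fish 4. In both L. attenuatus fish it was in section 4, at 39.8 and 41.9 CPM. In fish 3 the gene remained at 22.3 CPM in section 5, against 0 to 1.30 CPM in the other 5 fish, and the score in fish 3 was -0.865.

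**Figure D4:**
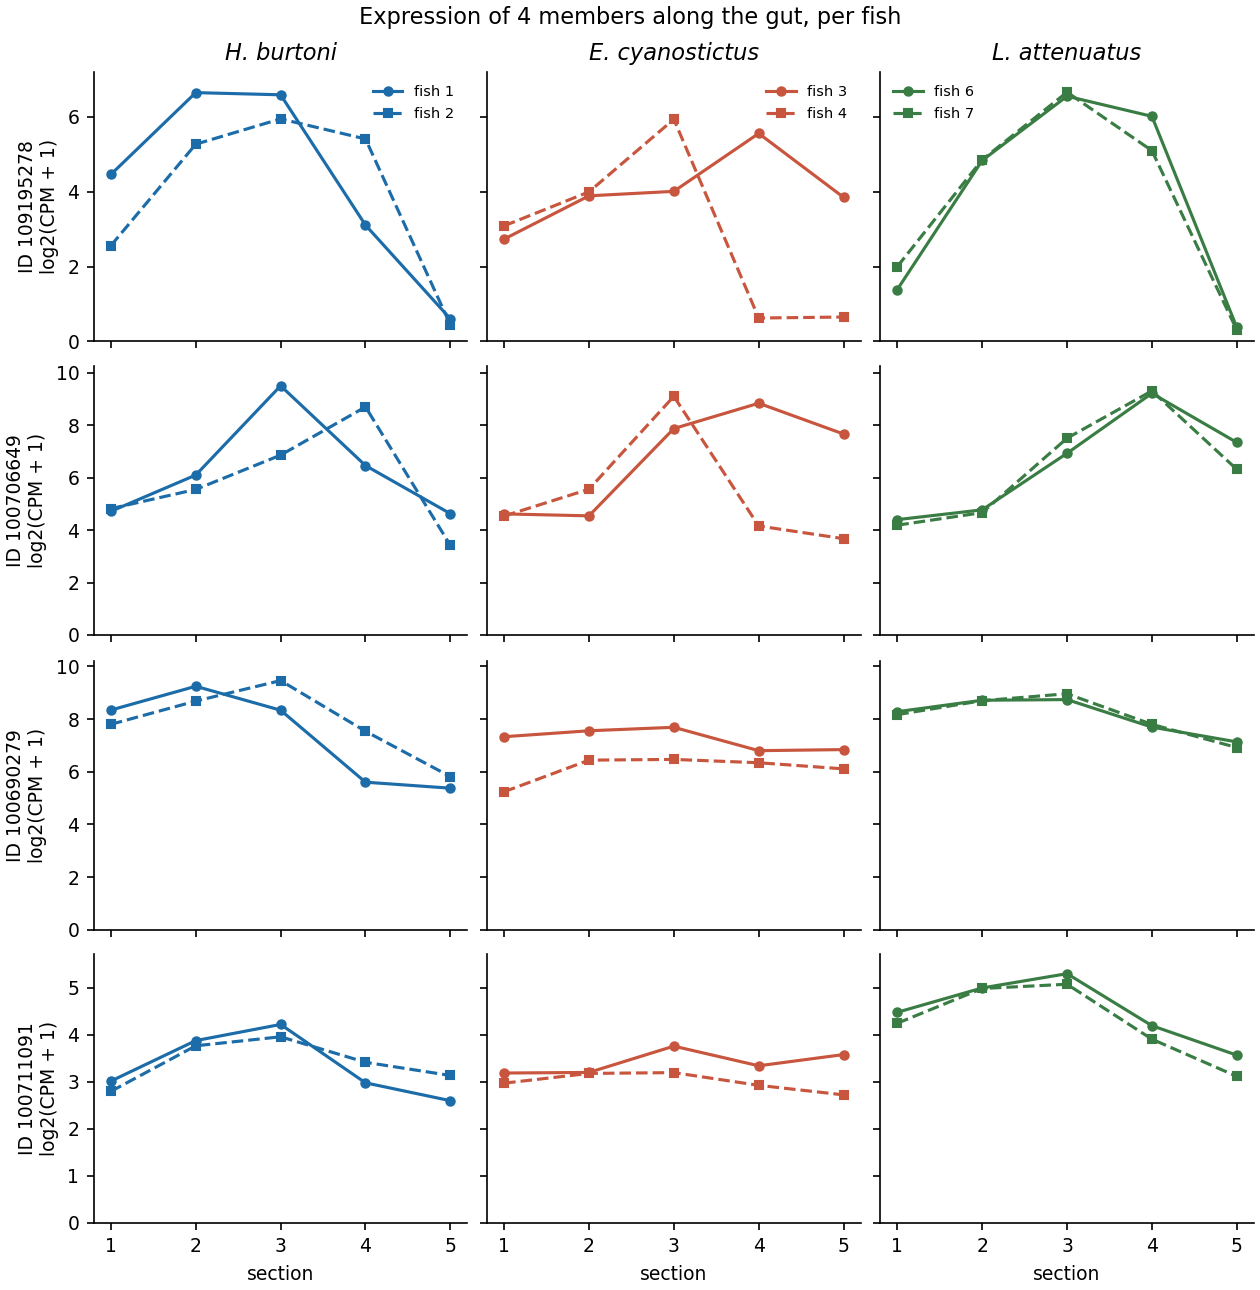
Level of the 4 middle-gut genes given by ID (rows, log2(CPM + 1), each row on its own scale from 0) in sections 1 to 5 (x axis), with a panel per species and a line per fish. The 2 L. attenuatus fish run close together, while fish 3 and fish 4 part in section 4 for 109195278 and 100706649.

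Membership depended on how libraries were scaled and on which fish were averaged. When CPM was corrected by TMM factors, 46 of the 100 genes were chosen again. On that scale the score was positive in 100 genes for H. burtoni, 77 for E. cyanostictus and 57 for L. attenuatus, and in all 3 species for 47. The TMM factors of L. attenuatus ran from 0.675 and 0.777 in section 1 to 1.02 and 1.03 in section 5 of fish 6 and 7. The median of the members' shifts in score in that species was -0.34. Leaving out fish 4 kept 56 genes and leaving out fish 3 kept 66. Leaving out fish 1, 2, 6 or 7 kept 79, 76, 75 or 85. Computing the score in each fish kept 52.

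**Figure D5:**
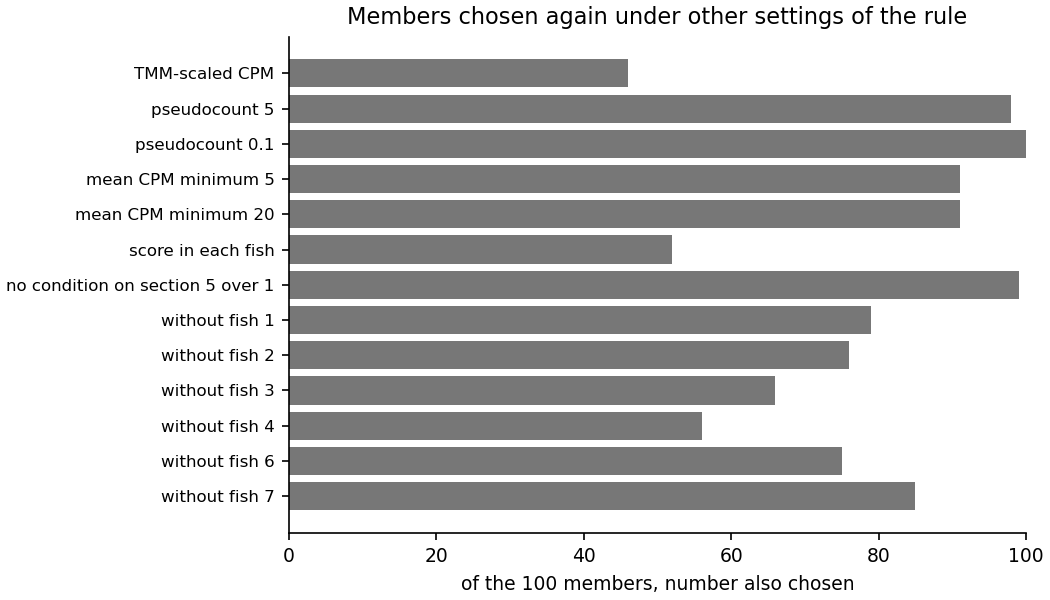
Number of the 100 middle-gut genes chosen again when 1 setting of the rule was changed (x axis, from 0 to 100), with a bar per setting. The TMM scale keeps 46, scoring each fish keeps 52 and leaving out fish 4 keeps 56.

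Under every one of the other settings of the rule tried, the same 6 genes were chosen again, those ranked 1, 6, 7, 10, 18 and 23. The gene ranked 7 measured 16.0, 42.1, 169.1, 90.9 and 41.9 CPM in sections 1 to 5 of fish 1, and 12.2, 42.2, 53.3, 196.8 and 32.1 CPM in fish 2. It measured 21.0, 25.8, 69.9, 233.6 and 61.6 CPM in fish 3, and 12.1, 27.3, 199.5, 50.5 and 40.4 CPM in fish 4. It measured 15.3, 20.1, 67.2, 135.9 and 38.5 CPM in fish 6, and 14.1, 14.3, 53.3, 109.6 and 34.9 CPM in fish 7. Its peak lay in section 3 of fish 1 and 4 and in section 4 of the other 4 fish, and section 2 of L. attenuatus was lower than section 5.

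The gene ranked 10 had a flat and regular course, with 25.4 to 60.4 CPM in the middle libraries and 20.01 to 36.0 CPM in the end libraries. Its score was 0.529 for H. burtoni, 0.393 for E. cyanostictus and 0.38 for L. attenuatus. The gene ranked 6 was more abundant and peaked in a different section of each species, at 501 CPM in section 3 of H. burtoni, 416 in section 2 of E. cyanostictus and 806 in section 4 of L. attenuatus. The gene ranked 18 peaked in section 3 of all 3 species although its level differed between the L. attenuatus fish, at 91.9 CPM in section 3 of fish 6 and 23.0 CPM in that of fish 7. The gene ranked 23 also peaked in section 3 of all 3 species, at mean levels of 557 CPM for H. burtoni, 217 for E. cyanostictus and 25.2 for L. attenuatus.

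The change from section 2 to section 4, which the rule did not fix, sets the anterior part of the middle gut against the posterior part. In L. attenuatus, 6 of 100 middle-gut genes changed by the quasi-likelihood test of edgeR (10 libraries of the species, Benjamini-Hochberg adjusted p under 0.05 over 19697 genes). Section 4 was higher for 4 of them, by 1.74 to 4.79 on the log2 scale, and lower for 2, by 1.34 and 1.37. Of all genes tested, 2.14% were called higher and 1.56% lower, 3.7% in all, so the middle-gut genes were called in numbers near that background. With the fish as a block, 6 genes were called higher and 3 lower, against 6.56% and 6.29% of all genes (12.8% together). DESeq2 called 8, against 5.05%. In a fit of all 30 libraries, which shares the spread among species, 0 were called, against 1.81% of all genes. In it 7 had an unadjusted p under 0.05, against 2707 of all 22430 genes tested. That fit gave 4 calls without fish 3 or fish 4, against 3.01% and 3.13% of all genes. It gave 0 without fish 1, 2, 6 or 7, against 1.2%, 1.22%, 0.0949% and 0.0304%. All 5 called genes described next kept their sign with any fish left out. In those fits 100690279 passed in 0 of 6 and the other 4 genes passed only without fish 3 or fish 4.

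The gene with ID 100706649, ranked 39, showed the largest mean rise from section 2 to section 4 over the 3 species among the called genes. It measured 25.3, 67.6, 726, 87.2 and 23.7 CPM in sections 1 to 5 of fish 1, and 27.2, 45.9, 115, 415 and 9.69 CPM in fish 2. In fish 3 it measured 23.6, 22.3, 234, 458 and 202 CPM, and in fish 4 it measured 22.2, 46.2, 549, 16.9 and 11.8 CPM. In fish 6 it measured 20.1, 26.4, 121, 595 and 162 CPM, and in fish 7 it measured 17.2, 24.4, 181, 635 and 78.8 CPM. Both L. attenuatus fish were far higher in section 4 than in section 2, and these groups did not overlap. In E. cyanostictus fish 3 was higher in section 4 than in section 2 and fish 4 was lower. Section 4 exceeded section 2 by 4.22 ± 0.43 (log2, SE) in L. attenuatus (edgeR adjusted p = 0.00204). The estimates in H. burtoni, 2.14 ± 0.93 (adjusted p = 0.307), and in E. cyanostictus, 2.75 ± 1.62 (adjusted p = 0.703), did not pass. Its score in L. attenuatus was only 0.157, with section 2 nearly as low as section 1 and section 5 well above both.

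The gene ranked 3 rose by 4.79 ± 0.83 (log2, SE) from section 2 to section 4 of L. attenuatus (edgeR adjusted p = 0.0206), from 1.95 to 39.8 CPM in fish 6 and from 0.440 to 41.9 CPM in fish 7. The gene ranked 7 rose by 2.44 ± 0.23 there (adjusted p = 0.00138). Its estimates of 1.77 ± 0.55 in H. burtoni (adjusted p = 0.164) and 2.32 ± 0.83 in E. cyanostictus (adjusted p = 0.41) had the same sign and did not pass.

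The 2 called genes that fell were higher in section 2 than in section 4 of both L. attenuatus fish. The gene with ID 100690279, ranked 26, measured 324, 607, 323, 47.7 and 40.6 CPM in fish 1, and 222, 411, 706, 185 and 55.4 CPM in fish 2. It measured 160, 187, 205, 111 and 114 CPM in fish 3, and 36.8, 85.9, 87.6, 80.2 and 68.1 CPM in fish 4. It measured 311, 420, 427, 206 and 140 CPM in fish 6, and 287, 415, 498, 222 and 120 CPM in fish 7. Section 4 lay below section 2 in all 6 fish, by little in fish 4. The log2 change was -1.34 ± 0.24 (SE) in L. attenuatus (edgeR adjusted p = 0.0226), -2.14 ± 0.69 in H. burtoni (adjusted p = 0.177) and -0.70 ± 0.86 in E. cyanostictus (adjusted p = 0.879). In L. attenuatus section 1 also lay above section 4.

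The gene with ID 100711091, ranked 88, was expressed at lower levels, with 30.9 and 30.7 CPM in section 2 of fish 6 and 7 and 17.3 and 14.0 CPM in section 4. Its change was -1.37 ± 0.24 (log2, SE) in L. attenuatus (edgeR adjusted p = 0.021). In H. burtoni it was -0.69 ± 0.33 (adjusted p = 0.366), with 13.7 and 12.6 CPM in section 2 and 6.88 and 9.66 CPM in section 4. In E. cyanostictus it was -0.16 ± 0.44 (edgeR adjusted p = 0.946), with levels of 6.59 to 9.13 CPM in both sections. This gene met the level minimum only through L. attenuatus (22.2 mean CPM, against 9.25 over the other species). That it passed in L. attenuatus alone is therefore not read as a difference between species.

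In the other 2 species no middle-gut gene passed for section 4 over section 2. In H. burtoni 0 of 99 tested genes were called by edgeR, against 0.85% of all genes. An unadjusted p under 0.05 occurred in 14 of the 99, against 3179 of all 19886 genes tested. DESeq2 called 5 (3.84% of all genes) and edgeR with the fish as a block called 1 (4.21%). In E. cyanostictus 0 of 100 were called by edgeR, against 0% of all genes. An unadjusted p under 0.05 occurred in 6 of the 100, against 1998 of all 20733 genes tested. DESeq2 called 1 there (2.84% of all genes) and the blocked fit 0 (2.17%). In the fit of all 30 libraries 1 gene was called in H. burtoni (1.97% of all genes) and 0 in E. cyanostictus (2.2%). The H. burtoni count was 2 without fish 3 (2.91%) or fish 4 (3.13%), 1 without fish 2 (0.613%) and 0 without fish 1 (0.0259%), 6 (0.612%) or 7 (0.582%). The E. cyanostictus count was 2 without fish 4 (1.04%), 1 without fish 3 (0.947%), 6 (0.936%) or 7 (0.956%) and 0 without fish 1 (1.52%) or 2 (1.51%).

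The median middle-gut gene differed little between sections 2 and 4. Its fitted log2 change was -0.22 for H. burtoni, -0.19 for E. cyanostictus and -0.06 for L. attenuatus, against -0.02, -0.08 and 0.01 over all genes tested. The estimate was above 0 for 32 of 99, 30 of 100 and 46 of 100 middle-gut genes, and for 48.6%, 44.2% and 50.6% of all genes. The H. burtoni median changed sign with the fish included, being 0.23 without fish 1 and -0.63 without fish 2. The value without fish 1 rests on the section 4 library of fish 2, which had the lowest depth. On the CPM scale the median was -0.44 in fish 1 and 0.14 in fish 2, -0.27 in fish 4 and 0.13 in fish 3, and 0.41 and 0.26 in fish 6 and 7, where eligible genes had 0.39 and 0.3. Eligible genes had 0.16 and -0.11 in fish 1 and 2, and 0.23 and -0.02 in fish 3 and 4. By CPM the sign of the members' median thus differed between the 2 fish in both H. burtoni and E. cyanostictus. In the fits, which use TMM factors, the E. cyanostictus median was -0.21 without fish 3 and -0.11 without fish 4. In L. attenuatus the sign differed between the CPM and the TMM scale.

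Section 3 was set against the mean of sections 2 and 4 to describe the shape of the middle. No middle-gut gene passed in any species by edgeR (0 of 99 for H. burtoni, 0 of 100 for E. cyanostictus and 0 of 100 for L. attenuatus), where 0%, 0% and 0.0102% of all genes did. Before adjustment 5, 4 and 10 of them had a p under 0.05 by edgeR. Of all genes tested, 466 of 19886, 212 of 20733 and 635 of 19697 did. DESeq2 called 0, 0 and 2 (0.131%, 0% and 0.364% of all genes), and the fit with the fish as a block called 0 in each (0%, 0% and 0.3%). The median middle-gut gene was higher in section 3 by 0.33, 0.19 and 0.13 on the log2 scale in that order of species, against -0.01, 0.02 and 0.01 over all genes. The estimate was positive for 89 of 99, 80 of 100 and 79 of 100 of them, against 48.6%, 52.2% and 51.5% of all genes. The members were chosen from these libraries for a middle above both ends, which may favour section 3. The medians and signs set against all genes are therefore a description. The median was positive in each fish on the CPM scale, from 0.17 in fish 6 to 0.44 in fish 1. By edgeR the lowest adjusted p belonged to the gene 109195278 in L. attenuatus. Its estimate was 1.37 ± 0.24 (log2, SE; edgeR adjusted p = 0.257, and 0.0518 with the fish as a block). That gene passed by DESeq2 at 1.36 ± 0.32 (adjusted p = 0.00425), as did the gene ranked 2 in the same species (DESeq2 adjusted p = 0.00154).

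Whether the change from section 2 to section 4 differed between species was tested in a fit of all 30 libraries. No middle-gut gene passed by edgeR for E. cyanostictus against H. burtoni (0 of 100, against 0.00446% of all genes), for L. attenuatus against H. burtoni (0, against 0.0802%) or for L. attenuatus against E. cyanostictus (0, against 0.116%). Before adjustment 3, 4 and 1 of them had a p under 0.05 by edgeR, against 1047, 1432 and 1362 of all 22430 genes tested. DESeq2 called 0, 1 and 0 (0.186%, 0.369% and 0.549% of all genes), and the fit with the fish as a block called 0, 0 and 1 (0.357%, 0.611% and 0.959%). The median difference of the middle-gut genes was 0.04, 0.21 and 0.15 on the log2 scale in the same order, against -0.07, -0.02 and 0.01 over all genes. The first was -0.49 without fish 1, 0.45 without fish 2 and -0.02 without fish 4, and the second was -0.30 without fish 1 and 0.66 without fish 2.

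Levels of the middle-gut genes over the whole intestine were compared between species on the counts of each fish summed over its 5 sections, 39593469 to 46527681 per fish. For E. cyanostictus against H. burtoni 10 of 100 genes passed (edgeR adjusted p under 0.05 over 24792 genes), 4 higher and 6 lower in E. cyanostictus, against 14.1% of all genes (6.76% higher and 7.35% lower). For L. attenuatus against H. burtoni 16 passed, 7 higher and 9 lower, against 19.2% (8.87% and 10.3%). For L. attenuatus against E. cyanostictus 19 passed, 13 higher and 6 lower, against 18.9% (9.07% and 9.83%). These shares were near or below the background. DESeq2 called 22, 26 and 28 of the middle-gut genes, against 17.5%, 21.3% and 21% of all genes. The 3 comparisons share fish. Reads of all 3 species were counted under the same gene IDs, and losses of reads that align poorly were not compared between species. Differences in expression and in alignment are therefore not told apart in the species differences given here and below. The minimum of 10 mean CPM was met by 4 middle-gut genes, those ranked 48, 65, 88 and 89, only through the species in which each was highest. Those genes had to differ between species, and the counts above include 2, 3 and 1 of them in the order of the comparisons.

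The counts of called genes moved with the fish included, and the share of all genes called moved as well. The comparison of E. cyanostictus with H. burtoni gave 1 call without fish 1 (0.675% of all genes), 1 without fish 2 (0.643%), 20 without fish 3 (14.6%), 6 without fish 4 (7.89%), 5 without fish 6 (7.33%) and 5 without fish 7 (7.39%). In the same order of fish left out, L. attenuatus against H. burtoni gave 2 (1.94%), 3 (1.51%), 25 (24.1%), 25 (24.6%), 5 (2.96%) and 7 (2.54%). L. attenuatus against E. cyanostictus gave 9 (9.17%), 9 (9.35%), 31 (21.2%), 12 (12.4%), 5 (5.06%) and 5 (2.84%). In these fits the species left with 1 fish is assumed to vary like the others. The median species difference of the middle-gut genes was -0.24, -0.14 and 0.15 on the log2 scale in the order of the comparisons above, against 0.02, -0.01 and -0.01 over all genes. The first was -0.02 without fish 4 and -0.64 without fish 3. The second was -0.06 without fish 1 and -0.07 without fish 7. The last was -0.06 without fish 4, 0.03 without fish 6 and 0.44 without fish 3.

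The genes ranked 48 and 89 lay farthest apart between species, and were singled out after their values were seen. Since each met the level minimum only through 1 species, their values are a description with no test. The gene ranked 48 measured 0.392 and 0.464 CPM over the whole gut in fish 1 and 2, 115 and 84.3 CPM in fish 3 and 4, and 19.6 and 1.83 CPM in fish 6 and 7. The gene ranked 89 measured 68.9 and 38.7 CPM in fish 1 and 2 and 2.02 to 3.11 CPM in the other 4 fish. In neither gene did the values of H. burtoni overlap those of the other species.

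Of the genes described above, 109195278 measured 44.5 and 30.02 CPM over the whole gut of fish 1 and 2, 17.5 and 16.9 CPM in fish 3 and 4, and 37.0 and 31.6 CPM in fish 6 and 7. It was lower in E. cyanostictus than in H. burtoni by 1.31 ± 0.27 (log2, SE; edgeR adjusted p = 0.0293) and higher in L. attenuatus than in E. cyanostictus by 1.28 ± 0.27 (adjusted p = 0.0248). The gene ranked 2 stood highest in H. burtoni, at 122 and 78.2 CPM against 39.2 to 41.5 CPM in the other 4 fish, and both differences passed (adjusted p = 0.022 for E. cyanostictus and 0.0306 for L. attenuatus). The gene 100711091 measured 23.9 and 21.1 CPM in L. attenuatus against 7.03 to 10.4 CPM in the other 4 fish. It met the level minimum only through L. attenuatus, so that this difference is a description with no test. The gene ranked 23 was lower in L. attenuatus, with a log2 difference of -4.18 ± 0.45 (SE) from H. burtoni (edgeR adjusted p = 0.00618) and of -2.70 ± 0.42 from E. cyanostictus (adjusted p = 0.0119). That gene peaked in section 3 of all 3 species while its overall level differed.

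Most of these species calls depended on which fish were included. That of the gene ranked 23 in L. attenuatus against H. burtoni passed with each fish left out in turn, and that against E. cyanostictus failed without fish 6 (adjusted p = 0.0586). For 109195278 the difference between E. cyanostictus and H. burtoni passed only without fish 3, and that between L. attenuatus and E. cyanostictus failed without fish 4, 6 or 7. The gene ranked 2 passed against E. cyanostictus only without fish 3, and against L. attenuatus it failed without fish 1, 2, 6 or 7. All of these differences kept their sign, and adjusted p reached at most 0.143.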

How the data were processed

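The authors deposited 1 table of raw gene counts, whole numbers with a column per library. Trimmomatic, STAR and HTSeq are named in the submitters' processing notes, without role or version, and the genome build and annotation are not given in the sources used here. Total RNA was taken per section and made into libraries by the Illumina TruSeq procedure, per the labels' protocols. Of the table's 5 special rows, those for reads outside genes (6.15% to 16.5% of counts) and ambiguous reads (2.58% to 3.45%) were left out, and the other 3 were 0. Reads of paralogous, overlapping or antisense genes cannot be told apart, and losses of reads that align poorly to the reference were not examined.

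Columns were assigned by the species, section and fish in their names, and 0 were unassigned. For E. cyanostictus and L. attenuatus the fish numbers 3, 4, 6 and 7 are those of the columns, since the labels number fish within a species. In the gene table of assembly NCSU_Asbu1 (H. burtoni, 28690 genes), 0 of the IDs were found, so names, coordinates and sequences were not used here.

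The members and lists were chosen with earlier results of these data known. Scores were computed in Python 3.11.15 from CPM with a pseudocount of 1. Tests used edgeR 4.0.16 in R 4.3.3 (filterByExpr, TMM, robust quasi-likelihood F-test), fitted over all genes with Benjamini-Hochberg adjustment within each contrast and called at an adjusted p under 0.05. Fits were made per species for sections 4 over 2 and 3 against 2 and 4, on all 30 libraries for species differences in 4 over 2, and on counts summed per fish for species levels. DESeq2 1.42.0, the fish as a block, other size factors, no count filter, other thresholds and each fish left out were the alternatives. The code was tested on simulated counts. Differences between the 2 fish of a species correlated between all pairs of sections (0.216 to 0.811 in H. burtoni, 0.269 to 0.908 in E. cyanostictus, 0.342 to 0.837 in L. attenuatus). Sections of 1 fish number were therefore taken as paired in the fits with the fish as a block. The main fits did not use this pairing. For E. cyanostictus and L. attenuatus it rests on the fish numbers of the columns, which are not in the labels.

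The IDs named are the gene with the highest smallest score, the gene with the largest mean rise from section 2 to 4 and the 2 with the largest mean fall, among genes called in at least 1 species with the same sign in all 3. Genes given by rank were singled out after their values were seen.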

Additional observations from a re-analysis of the deposited data

Results flagged for a closer look

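The middle-gut gene ranked 82 differed between L. attenuatus and E. cyanostictus in its change from section 2 to section 4 when the fish entered as a block, by 1.26 ± 0.28 on the log2 scale (SE; edgeR adjusted p = 0.04). That contrast called 1 of the 100 members, which is near its share of 0.959% over all genes. In section 2 the gene measured 30.3 and 23.0 CPM in fish 3 and 4, and in section 4 it measured 19.3 and 9.73 CPM. In L. attenuatus it measured 11.3 and 7.22 CPM in section 2 of fish 6 and 7, and 17.8 and 10.7 CPM in section 4. It was lower in section 4 in both E. cyanostictus fish and higher in both L. attenuatus fish. Without the block the difference was 1.23 ± 0.70 (edgeR adjusted p = 0.886), and DESeq2 gave 1.21 (adjusted p = 0.786). Within each species the blocked change did not pass, at -1.06 ± 0.24 in E. cyanostictus (edgeR adjusted p = 0.079) and 0.22 ± 0.21 in L. attenuatus (adjusted p = 0.549).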

How the results depend on the processing

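Of the 100 members, 46 were chosen again on the TMM scale, 52 with the score in each fish and 56 to 85 with 1 fish left out, while other pseudocounts, level minimums and no condition on section 5 over 1 kept 91 to 100. With TMM factors, middle libraries lay wholly above end libraries for 13 members of H. burtoni, against 11 by CPM. This count was 1 for E. cyanostictus (0 by CPM) and 8 for L. attenuatus (13 by CPM). The share of eligible genes with that property is given for CPM only. The TMM counts are thus a description with no background. For section 4 over section 2, calls in L. attenuatus were 2 at an adjusted p under 0.01, 0 in the fit of all 30 libraries and 0 to 4 with 1 fish left out. In H. burtoni they were 5 by DESeq2, 1 without a count filter, 1 with all 30 libraries and 0 to 2 with 1 fish left out, and in E. cyanostictus 1 by DESeq2 and 0 to 2. With the fish as a replicate block, which the fish numbers pair, they were 1 for H. burtoni, 0 for E. cyanostictus and 9 for L. attenuatus. For section 3 against 2 and 4, DESeq2 called 2 in L. attenuatus, and the block changed no count. For the species difference in section 4 over 2, the block called 1 for L. attenuatus against E. cyanostictus and DESeq2 called 1 for L. attenuatus against H. burtoni. On summed counts, E. cyanostictus against H. burtoni gave 22 by DESeq2, 2 at an adjusted p under 0.01 and 1 to 20 with 1 fish left out. L. attenuatus against H. burtoni gave 26, 4 and 2 to 25, and L. attenuatus against E. cyanostictus gave 2 at an adjusted p under 0.01 and 5 to 31 with 1 fish left out. The summed counts hold 1 value per fish and allow no block. At an adjusted p under 0.01 (edgeR), 1.57%, 2.54% and 3.8% of all genes passed on summed counts, in the order of comparisons above. For section 4 over section 2 the share at that threshold was 1.21% in L. attenuatus. Without a count filter it was 1.14% in H. burtoni at an adjusted p under 0.05.

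The sign of section 4 over section 2 of 109195278 changed in E. cyanostictus with the block (-0.04 on the log2 scale) and without fish 3 (-4.67), in H. burtoni without fish 1 (0.23, against -3.89 without fish 2) and in L. attenuatus without fish 6 (-0.09, against 0.76 without fish 7). In E. cyanostictus it reached 1.49 without fish 4. That of 100706649 changed in E. cyanostictus without fish 3 (-1.38, against 4.11 without fish 4). On summed counts, the sign changed for 100706649 in E. cyanostictus against H. burtoni without fish 1 (0.38) and without fish 4 (0.17, with -0.48 without fish 3), and in L. attenuatus against H. burtoni without fish 2 (-0.02, against 0.81 without fish 1). L. attenuatus against H. burtoni reversed for 109195278 without fish 1 (0.28, against -0.32 without fish 2) and fish 7 (0.05), and for 100690279 with sections 2 to 4 only (-0.12) and without fish 1 (-0.04, against 0.26 without fish 2). None of the values that reversed had passed a test, and the cause was not tested. Over all alternatives, 119 counts and sets stayed within 1.5 times the reported value and 50 did not. With 2 fish per group, a difference must be large against their spread to pass, and a gene that did not pass is not shown to be level.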
